A study of Mus musculus with 147 samples.

Results

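The genes described here are 10 mouse genes of fatty acid uptake, storage and use that encode peroxisome proliferator-activated receptors (PPARs) or are acted on by them: Pparg, Ppard, Cd36, Fabp4, Lpl, Angptl4, Plin2, Pnpla2, Acot1 and Pdk4. They were taken by name from the 50686 Ensembl identifiers of the count tables, each identifier being matched to its mouse symbol without its version, and all 10 were present in both tables. The study sequenced the polyA RNA of macrophages and monocytes sorted from mice by flow cytometry (FACS), in 147 Smart-seq2 libraries from 2 experiments. In the refeeding experiment all mice went without food for 12 h and the refed group then had food again for 2 h, and each library started from 400 cells. There were 8 fasted and 9 refed libraries each of adipose tissue macrophages, monocytes, microglia and colonic macrophages, 6 fasted and 7 refed libraries each of islet macrophages and Kupffer cells (the macrophages of the liver), and 8 of each of peritoneal macrophages, in 4 cohorts. The diet experiment compared normal diet (ND), high-fat diet (HFD) for 8 weeks and the same high-fat diet with streptozotocin (STZ) at week 4. STZ is a toxin of insulin-producing beta cells, and the series text states that it ablated the islets and raised blood glucose. In the order ND, HFD and HFD with STZ there were 4, 4 and 3 islet libraries from 400 cells each, 5, 4 and 5 peritoneal libraries from 100000 cells each, and 4, 4 and 4 microglia libraries from 5000 cells each. The sources used here do not give strain, sex or age. In the refeeding experiment 2 islet libraries of each group, fasted and refed, carry joined replicate numbers (1_2 and 5_6).

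PPARs are nuclear receptors that bind fatty acids and their derivatives and, paired with a retinoid X receptor, switch on genes that take up, store and burn fat. In macrophages PPAR-gamma is known for its part in lipid handling and in the identity of several tissue populations, while PPAR-delta is a widely expressed relative. Fasting releases fatty acids from adipose tissue, and PPAR targets such as Angptl4 and Pdk4 are textbook fasting genes of liver, muscle and fat.

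RefSeq (GRCm38.p6) held windows of 300 bases, from 250 before to 50 after a start site, for 7 of the 10 genes. Angptl4, Fabp4 and Lpl were not among them. The PPAR element is a direct repeat with 1 spacer, searched here as AGGTCANAGGTCA on both strands with at most 2 mismatches, and the Plin2 and Cd36 windows hold a match, as do 3.86% of all 32851 windows. They are shown because they hold it, beside the window of the fasting gene Pdk4, which holds none, each 5′ to 3′ on the gene's strand with the match, which reads on the opposite strand, in capitals. The single site AGGTCA, which makes up each side of the repeat and overlaps the Plin2 match, is in 16.255% of windows, among them those of Plin2 and Cd36 and 2 of the 3 Pparg windows.
Plin2, chr4:86670010-86670309, minus strand, match starting at position -225 from the start site: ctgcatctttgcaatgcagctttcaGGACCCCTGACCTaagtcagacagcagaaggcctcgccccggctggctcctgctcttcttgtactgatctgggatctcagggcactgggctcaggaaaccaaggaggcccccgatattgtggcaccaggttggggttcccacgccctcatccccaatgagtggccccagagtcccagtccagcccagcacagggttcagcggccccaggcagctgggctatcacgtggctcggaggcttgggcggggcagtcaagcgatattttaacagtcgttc
Cd36, chr5:17835847-17836146, minus strand, match starting at position -63: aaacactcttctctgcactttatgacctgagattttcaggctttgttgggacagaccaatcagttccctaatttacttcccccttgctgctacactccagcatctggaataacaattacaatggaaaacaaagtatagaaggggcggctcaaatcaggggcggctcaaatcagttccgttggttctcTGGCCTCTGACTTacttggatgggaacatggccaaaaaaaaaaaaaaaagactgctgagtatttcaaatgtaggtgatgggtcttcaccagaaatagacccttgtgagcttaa
Pdk4, chr6:5496229-5496528, minus strand: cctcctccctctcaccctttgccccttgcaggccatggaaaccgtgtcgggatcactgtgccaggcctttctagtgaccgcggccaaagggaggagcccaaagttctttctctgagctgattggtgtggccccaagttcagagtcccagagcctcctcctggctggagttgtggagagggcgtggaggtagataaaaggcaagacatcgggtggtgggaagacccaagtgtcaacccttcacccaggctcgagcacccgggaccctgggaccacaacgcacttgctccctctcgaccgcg
The capitals mark letters that resemble the element and do not show that a receptor binds there.

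Refeeding libraries held 7.92 to 27.3 M counts and diet libraries 11.3 to 34.5 M. Levels are in CPM, a gene's counts per M (mega) counts on scaled library sizes. Changes are log2 fold changes from edgeR ± their standard error (SE). The edgeR test reports no SE, so it was taken as the size of the change over the square root of the test's F statistic. It is approximate, above all for changes near 0 or resting on counts of 0. Markers of the labelled population were higher in its own libraries than in any other library for 6 of the 7 populations of the refeeding experiment and for all 3 of the diet experiment. The islet macrophage markers of the refeeding experiment (Il1b, Tnf, Apoe, Trem2, Lyz2, Itgax) were not, in 0 of 13 islet libraries. Among the refed libraries 4 have a description that speaks of fasting alone although title and treatment field say refed, namely replicates 1_2 and 3 of islet macrophages and replicates 1 and 2 of Kupffer cells. Libraries of different populations share replicate numbers within a treatment, and their library numbers run on through the populations, but the labels do not say that a number is 1 mouse. P-values therefore measure the spread between these libraries. In sorted bulk samples a change in the cells that carry a gene and a change in RNA per cell cannot be told apart.

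Among the receptors, Pparg was counted at similar levels in 3 fasted populations and had no count in fasted microglia. Fasted islet macrophages averaged 31 ± 19.2 CPM (SD, n = 6), Kupffer cells 29.5 ± 14.7 (n = 6) and adipose tissue macrophages 25.2 ± 19.1 (n = 8). These 3 did not pass the edgeR test between neighbours (adjusted p = 0.999 and 0.934), and their libraries overlapped widely. Colonic macrophages averaged 8.99 ± 5.62 CPM, monocytes 8.69 ± 7.57 and peritoneal macrophages 1.80 ± 1.94 (n = 8 each). All 8 fasted microglia libraries had 0. The level in islet macrophages exceeded that in peritoneal macrophages (log2 4.22 ± 1.15, edgeR adjusted p = 0.00666, in a pair in which 20.3% of genes differed). Ppard, the gene of PPAR-delta, was low everywhere: islet macrophages averaged 15.1 ± 9.40 CPM and the other populations between 2.42 and 6.53. No pair of neighbours in that order passed the test, while islet macrophages exceeded peritoneal macrophages, the lowest (log2 2.69 ± 0.84, edgeR adjusted p = 0.0177).

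Cd36, a scavenger receptor that carries long-chain fatty acids into the cell, averaged 5879 ± 992 CPM in fasted adipose tissue macrophages (range 4734 to 7444, n = 8). The next population, peritoneal macrophages, averaged 1482 ± 260 (range 1175 to 1970, n = 8), a log2 difference of 1.98 ± 0.40 (edgeR adjusted p = 0.000248, in a pair in which 15.7% of genes differed). Islet macrophages averaged 1215 CPM, Kupffer cells 863, colonic macrophages 400 ± 300, monocytes 105.5 and microglia 0.979. The peritoneal, islet and Kupffer levels did not pass the test between neighbours, and every step below Kupffer cells did (8.98%, 20.3% and 25.5% of genes differed in those pairs). Fabp4, an intracellular fatty acid carrier, took another order. Peritoneal macrophages averaged 368 ± 56.5 CPM (range 292 to 432), adipose tissue macrophages 91.5 ± 57 (26.3 to 193) and Kupffer cells 57.9 ± 30.4 (27.7 to 110.8). No peritoneal library overlapped the other 2 populations, although the peritoneal and adipose levels did not pass the test (log2 1.97 ± 0.84, edgeR adjusted p = 0.112). Monocytes averaged 9.79 CPM, and islet, colonic and microglia libraries stayed at or under 7.86.

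Lpl encodes the lipase that frees fatty acids from triglyceride-rich lipoproteins. It was high in Kupffer cells (1027 ± 398 CPM), adipose tissue macrophages (831 ± 273) and peritoneal macrophages (735 ± 100.7), which did not pass the test between neighbours. It was lower in monocytes (235 ± 68.8), with a log2 difference of 1.63 ± 0.47 between peritoneal macrophages and monocytes (edgeR adjusted p = 0.0128, 14.7% of genes), and lowest in microglia and colonic macrophages (60.6 and 59.6). Angptl4, a secreted inhibitor of that lipase, was highest in adipose tissue macrophages. Adipose tissue macrophages averaged 264 ± 41.3 CPM (range 218 to 344) against 64.4 ± 44.7 in Kupffer cells (6.21 to 114.8), a log2 difference of 2.42 ± 0.79 (edgeR adjusted p = 0.0417, in a pair in which 10% of genes differed). Colonic, peritoneal and islet macrophages averaged 28.7, 23.5 and 20.1 CPM, and no fasted monocyte or microglia library exceeded 2.30.

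Of the storage and release genes, Plin2, which coats lipid droplets, averaged 3207 ± 701 CPM in fasted adipose tissue macrophages (range 2316 to 4612). Islet macrophages followed at 1204 ± 266 (766 to 1582), with a log2 difference of 1.45 ± 0.23 (edgeR adjusted p = 9.83e-06, in a pair in which 11.4% of genes differed). Islet, colonic (1027) and peritoneal (1007) levels did not pass the test between neighbours, and microglia were lowest at 63.9 ± 34. Pnpla2 encodes adipose triglyceride lipase, which starts the breakdown of stored fat. Its means ran from 80 CPM in islet macrophages to 186 in Kupffer cells. No pair of neighbours passed the test, but Kupffer cells exceeded islet macrophages (log2 1.30 ± 0.30, edgeR adjusted p = 0.00211, in a pair in which 13.5% of genes differed), adipose tissue macrophages (adjusted p = 0.0103), monocytes (0.0120, 17.2%) and microglia (0.0434, 17.4%).

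Pdk4, a kinase that turns off pyruvate dehydrogenase and so spares glucose, averaged 124 ± 48.1 CPM in fasted adipose tissue macrophages (range 82.6 to 232), 38.9 ± 11.2 in peritoneal macrophages (16 to 51.9), 27.0 in Kupffer cells and 17.4 in colonic macrophages. Its fasted islet, monocyte and microglia libraries stayed at or below 0.150. Adipose tissue macrophages exceeded colonic macrophages (edgeR adjusted p = 0.0127, in a pair in which 11.3% of genes differed) but did not pass against peritoneal macrophages (0.144) or Kupffer cells (0.162). Acot1, which splits fatty acyl-CoA in the cytosol, had its highest mean in Kupffer cells, at 48.1 ± 19.7 CPM (15.3 to 62.3). Means elsewhere were 11.7 or lower, with 0 counts in 7 of 8 fasted peritoneal libraries. Kupffer cells passed the edgeR test against peritoneal macrophages alone (adjusted p = 0.00746, in a pair in which 15.5% of genes differed), and not against the other 5 populations (0.157 to 0.679). Acot1 lies beside near-identical paralogs, and how reads that fit several genes were treated is not stated in these sources, so its level is uncertain.

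Genes can be set against each other only per length. Per kilobase of merged exons, fasted adipose tissue macrophages held 1638 ± 276 CPM of Cd36 and 913 ± 200 of Plin2, then 79.3 of Lpl, 74.7 of Angptl4, 35.3 of Pdk4, 30.9 of Pnpla2, 20.4 of Fabp4, 8.55 of Pparg, 1.01 of Acot1 and 0.553 of Ppard. The order depends on the exon set. Per kilobase of the longest coding transcript Plin2 stood at 1699 ± 371, level with Cd36 at 1730 ± 292, then Lpl at 202, Fabp4 at 102.2, Angptl4 at 79.9, Pdk4 at 35.6, Pnpla2 at 35.5, Pparg at 11.9, Acot1 at 1.74 and Ppard at 1.27. In peritoneal macrophages on that scale Plin2 (533), Cd36 (436) and Fabp4 (411) were close together.

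**Figure D1:**
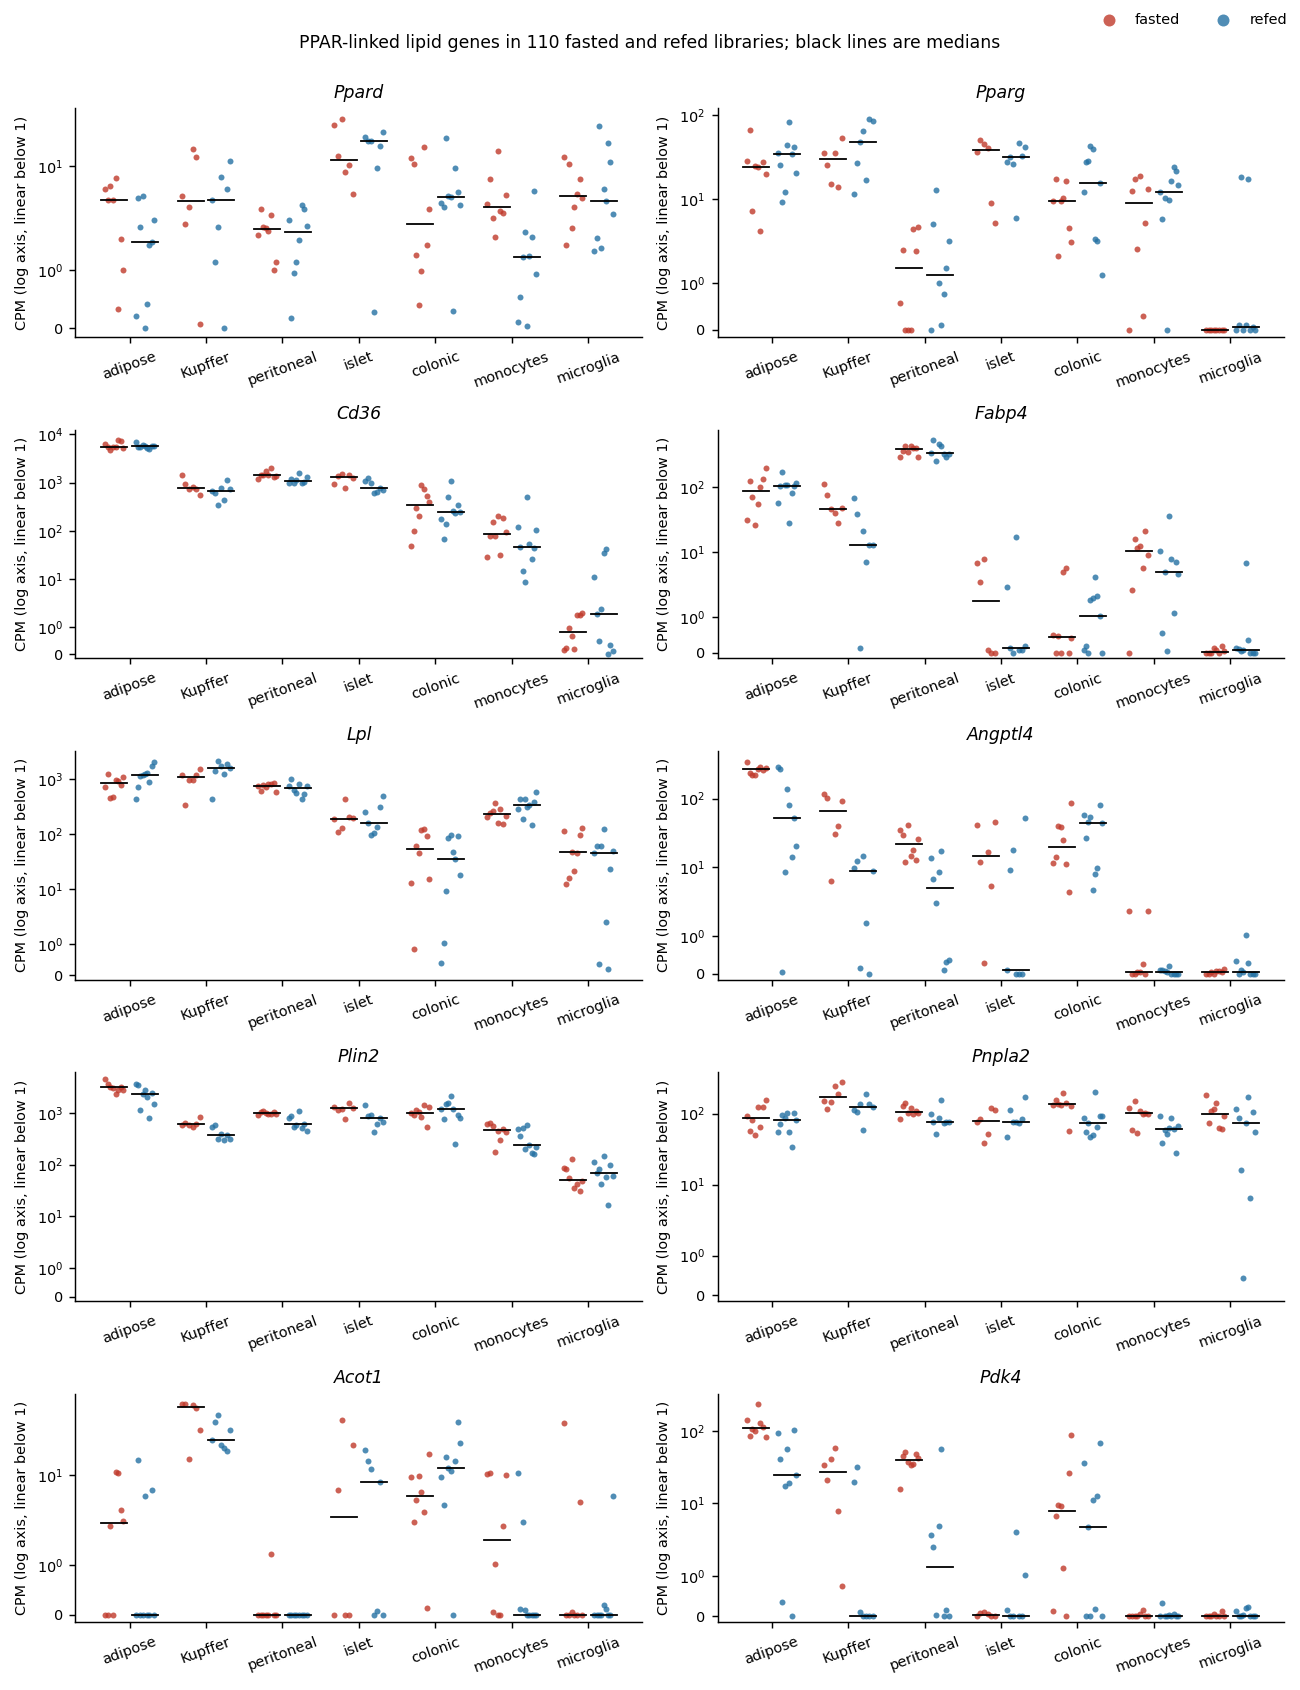
CPM of the 10 genes in each of the 110 fasted (red) and refed (blue) libraries by population, on a log axis that is linear below 1, with black lines at the medians. Cd36, Plin2, Angptl4 and Pdk4 are highest in adipose tissue macrophages, Fabp4 in peritoneal macrophages, and microglia have no count of Pparg in any fasted library.

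Refeeding for 2 h was compared with fasting in each population. No gene of the 10 passed the adjusted p of 0.05 in any of the 7 populations by edgeR. In 6 of these populations edgeR called no gene at all (0% of those tested), and in peritoneal macrophages it called 49 of 11331 (0.432%). At an unadjusted p below 0.05 the lower ones were 5 of 10 genes tested in Kupffer cells, where 1.74% of all genes were that low, 5 of 9 in peritoneal macrophages (4.92%), 3 of 10 in adipose tissue macrophages (1.97%), 2 of 8 in islet macrophages (1.03%), 1 of 7 in monocytes (1.37%), 1 of 9 in colonic macrophages (1.27%) and 0 of 5 in microglia (1.24%). Lpl in monocytes was the single one on the higher side (1.28% of all genes there). DESeq2 called 1 of the 10 in adipose tissue macrophages (0.979% of all genes), 1 in islet macrophages (0.437%), 2 in Kupffer cells (0.584%) and 4 in peritoneal macrophages (3.02%), and none in monocytes (0.0666%), microglia (0.374%) or colonic macrophages (0.295%). A limma fit with voom and quality weights called 3 in peritoneal macrophages (1.62%) and none in the others, where it called at most 0.112% of genes (Kupffer cells; 0.0458% in adipose tissue macrophages and 0.0253% in colonic macrophages). The genes left untested reached the count threshold of the filter in too few libraries. Their means were not always the lowest: untested Acot1 averaged 4.37 CPM in fasted monocytes, and tested Ppard 2.42 in fasted peritoneal macrophages. The median change of the tested genes was -0.62 in Kupffer cells, -0.43 in adipose tissue macrophages, -0.40 in islet macrophages and -0.39 in peritoneal macrophages, where all genes tested had medians of -0.04, -0.00, 0.03 and -0.00. It was -0.49 in monocytes, 0.03 in microglia and 0.15 in colonic macrophages.

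Among the populations in which they could be tested, the estimate was negative for Pnpla2 and Cd36 in 6 of 7 and for Plin2 and Ppard in 5 of 7. It was negative for Angptl4 in 4 of 5 and for Pdk4, Fabp4 and Acot1 in 3 of 4. Pparg was positive in each, and Lpl went both ways. Such sign counts were not compared with those of all genes. In adipose tissue macrophages Angptl4 ran from 218 to 344 CPM with a median of 267 in 8 fasted libraries, and from 0.052 to 284 with a median of 51.7 in 9 refed ones. The groups overlapped only through refed replicates 1 and 2 of cohort 1 (284 and 267), and the highest of the other refed libraries had 140. Refed minus fasted was -2.56 ± 0.77 on the log2 scale (edgeR, unadjusted p = 0.0042, adjusted p = 0.555), and the 4 cohorts each had a lower refed mean, as did 7.35% of genes. DESeq2 called it (adjusted p = 0.0415). The estimate ran from -3.37 without cohort 1 to -1.45 with voom.

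In Kupffer cells Angptl4 ran from 6.21 to 114.8 CPM with a median of 66.3 in fasted libraries and from 0 to 14.7 with a median of 8.73 in refed ones. A single fasted library, replicate 3 at 6.21, fell inside the refed range. In log2 terms this was -3.09 ± 1.05 (edgeR, unadjusted p = 0.011) and did not pass the adjustment. In peritoneal macrophages fasted libraries ran from 11.9 to 40.5 CPM with a median of 21.8, and refed ones from 0.096 to 17.2 with a median of 4.91. The log2 difference was -2.93 ± 0.80 (edgeR adjusted p = 0.121), called by DESeq2 (adjusted p = 0.000481) and by voom with quality weights (0.0474). It ran from -3.87 without cohort 3 to -1.46 without cohort 4. Colonic macrophages, in contrast, had Angptl4 at 4.42 to 85 CPM fasted and 4.69 to 81.3 refed, fully overlapping (log2 0.15 ± 0.58). Islet libraries had medians of 14.3 fasted and 0.109 refed, but refed replicate 9 was the highest of all at 52.3.

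Plin2 showed a smaller difference. In Kupffer cells it ran from 547 to 835 CPM with a median of 610 in fasted libraries and from 297 to 574 with a median of 378 in refed ones, and refed replicate 2 alone (574) reached the fasted range. The change was -0.68 ± 0.17 in log2 (edgeR, unadjusted p = 0.0011, adjusted p = 0.993; DESeq2 adjusted p = 0.0179). Kupffer libraries carried liver RNA in both groups: the sum of 9 endothelial markers ran from 1368 to 2905 CPM fasted and from 468 to 2750 refed, and that of 8 hepatocyte markers from 309 to 1369 and from 251 to 1087, with all of them counted. Their part in the Kupffer differences was not tested.

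In peritoneal macrophages Plin2 was 928 to 1096 CPM with a median of 995 in the 8 fasted libraries and 448 to 1097 with a median of 606 in the 8 refed ones. Refed replicate 6 (1097) was at the fasted level, and the next refed library was at 865, below every fasted one. The log2 difference was -0.60 ± 0.15 (edgeR adjusted p = 0.0845), with a lower refed mean in each of the 4 cohorts, as for 9.7% of genes. Islet macrophages had 766 to 1582 CPM fasted (median 1230) and 429 to 1407 refed (median 809), a log2 difference of -0.63 ± 0.16 (edgeR, unadjusted p = 0.0017, not passing the adjustment; DESeq2 adjusted p = 0.0263). The highest refed islet library was replicate 1_2, which is described as fasted only, and without replicates 1_2 and 3 the difference was -0.79. The refed mean was lower in 3 of the 4 islet cohorts, and none of the 10 genes was higher there in all 4 (6.97% of all genes were).

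Adipose tissue macrophages had Plin2 at 2316 to 4612 CPM fasted (median 3150) and 793 to 3572 refed (median 2348), with 5 of 9 refed libraries inside the fasted range. The log2 difference was -0.56 ± 0.21 (edgeR, unadjusted p = 0.016, adjusted p = 0.838). Adipocyte markers were counted in both groups, with 7 of 8 markers present, Cidea at 0 in all 17 libraries, and sums of 71.8 to 172 CPM fasted and 70.3 to 278 refed. Mesothelial and fibroblast markers summed to 2.02 to 481 CPM fasted and 77.2 to 1010 refed, with 7 of 8 counted in each group. The part of these cells in the adipose values was not tested. Peritoneal libraries had adipocyte sums of at most 4.48 CPM. Outside these populations Plin2 had overlapping groups: medians of 473 and 238 CPM in monocytes, 1022 and 1180 in colonic macrophages, and 51.1 and 68.6 in microglia, fasted and refed.

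Pdk4 went to or near 0 in many refed libraries. In peritoneal macrophages the fasted libraries had 16 to 51.9 CPM with a median of 40.2. Of the refed libraries, 2 had no count, 5 had between 0.040 and 4.95 CPM, and replicate 6 had 55.6. The log2 difference was -5.04 ± 1.37 (edgeR adjusted p = 0.12; DESeq2 adjusted p = 5.01e-05; voom adjusted p = 0.0277). With no cohort term it was -2.24 (edgeR adjusted p = 0.459), and without cohort 4 -2.68 (0.741). Without refed replicate 6, a choice made after seeing the data, edgeR called Pdk4 (-5.64, adjusted p = 0.0205) and Plin2 (-0.73, adjusted p = 0.00903). The share of all genes called in that fit is not given here, so the gain in calls was not shown to be particular to Pdk4 and Plin2.

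In Kupffer cells fasted Pdk4 ran from 0.756 to 57.4 CPM (median 27.5), while 4 of the 7 refed libraries had no count and 1 had 0.099. The remaining refed libraries, replicates 1 and 2 at 19.6 and 32.3 CPM, are those described as fasted only. They are all the refed Kupffer libraries of cohort 1, so description and cohort cannot be told apart. Their Angptl4 (9.625 and 12.3 CPM) lay below the fasted libraries of that cohort (114.8 and 102.7). Replicate 1 was the highest refed library for Fabp4 and replicate 2 for Plin2. With replicates 1 and 2 the log2 difference of Pdk4 was -6.87 ± 2.01 (edgeR, unadjusted p = 0.0043) and without them -9.57 (adjusted p = 0.143), values that rest on counts at or near 0. With no cohort term it was -1.86. In adipose tissue macrophages Pdk4 ran from 82.6 to 232 CPM (median 110.7) in fasted and from 0 to 104.2 (median 24.4) in refed libraries, with refed replicates 1 and 8 inside the fasted range. The log2 difference was -1.90 ± 0.86 (edgeR, unadjusted p = 0.042, adjusted p = 0.95). Colonic libraries of both groups ran from 0 to over 68 CPM with no order between them.

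**Figure D2:**
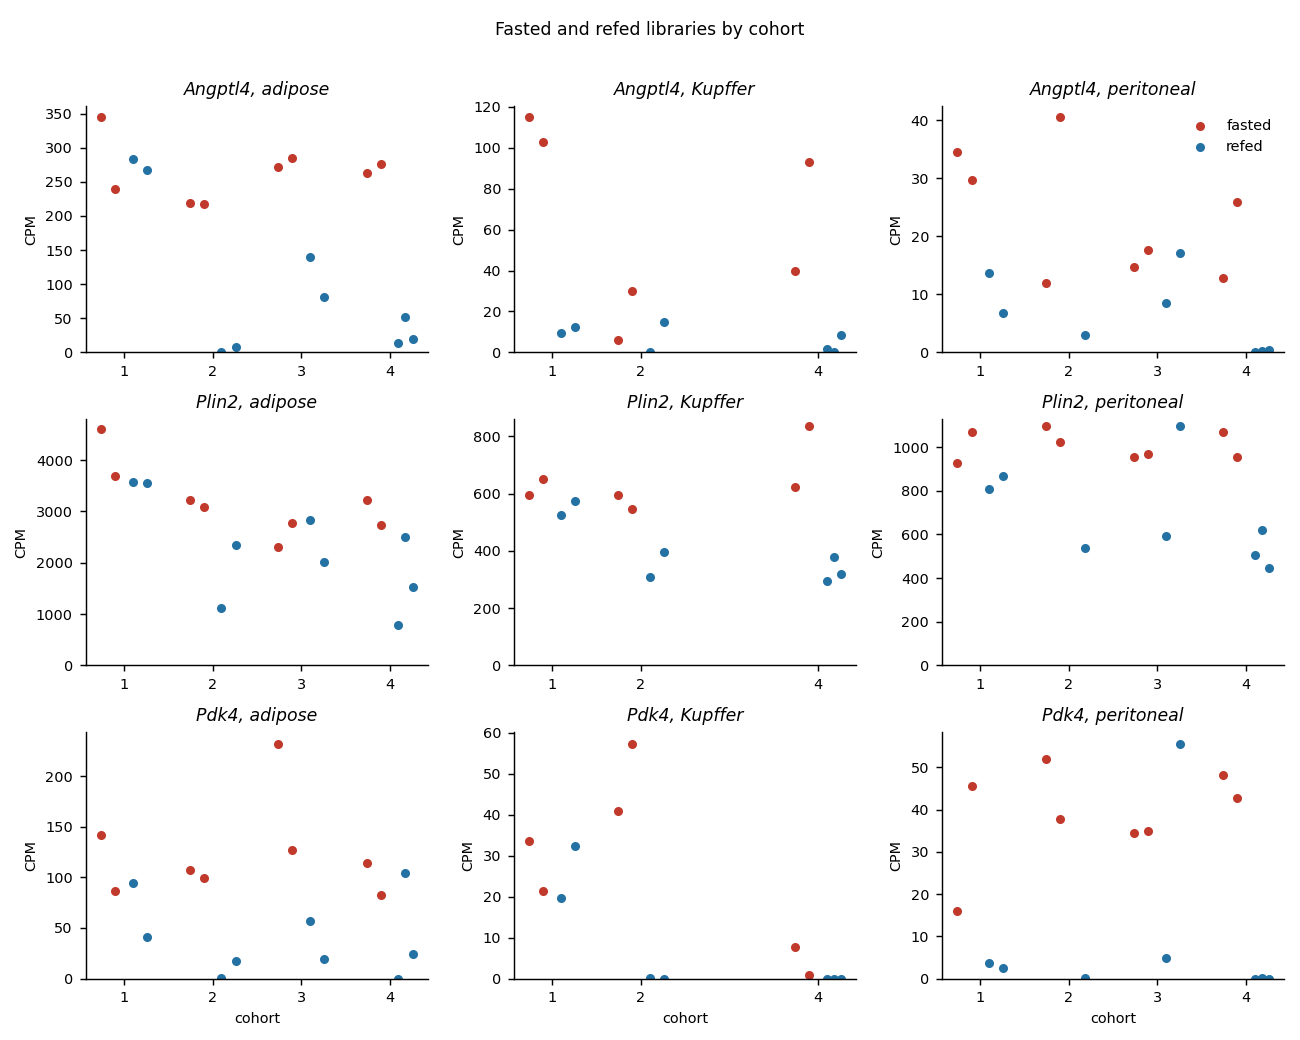
CPM of Angptl4, Plin2 and Pdk4 in each fasted (red) and refed (blue) library of adipose tissue macrophages, Kupffer cells and peritoneal macrophages, by cohort (Kupffer cells have none in cohort 3). Refed libraries lie mostly below fasted ones within a cohort. Some reach or exceed a fasted library of their cohort, among them peritoneal refed replicate 6 for Plin2 and Pdk4 and adipose refed replicates 1 and 8 for Pdk4.

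Cd36 was lower after refeeding in 2 populations at an unadjusted p. Peritoneal libraries had 1175 to 1970 CPM fasted (median 1431) and 954 to 1581 refed (median 1089), a log2 difference of -0.39 ± 0.11 (edgeR adjusted p = 0.132; DESeq2 adjusted p = 0.0179). Islet libraries had 776 to 1511 CPM fasted (median 1328) and 617 to 1243 refed (median 767), a log2 difference of -0.51 ± 0.14 (edgeR, unadjusted p = 0.0040; DESeq2 adjusted p = 0.0849). In adipose tissue macrophages, where the level is highest, the medians were 5446 and 5593 CPM and the log2 difference -0.08 ± 0.10. Fabp4 was at an unadjusted p below 0.05 in Kupffer cells: 27.7 to 110.8 CPM fasted (median 46.5) and 0.149 to 68.1 refed (median 12.6), a log2 difference of -1.54 ± 0.67 (edgeR, unadjusted p = 0.037). Its level in peritoneal macrophages was 292 to 432 CPM fasted and 255 to 523 refed (log2 -0.04 ± 0.14). Endothelial cells carry Fabp4 as well, and the part of the endothelial RNA given above in this value was not tested.

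For Lpl the log2 estimate was positive in 4 populations and negative in peritoneal macrophages (-0.12 ± 0.15), microglia (-0.57 ± 0.94) and colonic macrophages (-0.92 ± 0.64). Monocytes had 153 to 360 CPM fasted (median 228) and 147 to 572 refed (median 343), a log2 difference of 0.58 ± 0.25 (edgeR, unadjusted p = 0.032, not passing the adjustment). Fasted and refed medians were 857 and 1194 CPM in adipose tissue macrophages, 1075 and 1571 in Kupffer cells and 761 and 689 in peritoneal macrophages, with overlapping groups in each.

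Pnpla2 was lower at an unadjusted p in 4 populations. Kupffer libraries had 114.5 to 276 CPM fasted (median 169) and 59.1 to 190 refed (median 123), with a log2 difference of -0.60 ± 0.24 (edgeR, unadjusted p = 0.026). The difference was -0.70 ± 0.25 in monocytes (unadjusted p = 0.013), -0.65 ± 0.28 in colonic macrophages (0.030) and -0.40 ± 0.19 in peritoneal macrophages (0.047), all by edgeR, with overlapping groups in each. It was the single gene of the 10 lower at this level in monocytes and in colonic macrophages. Islet macrophages had medians of 79.6 and 75.7 CPM (log2 0.13 ± 0.31), and the effects on Pnpla2 were not shown to differ among populations (edgeR adjusted p = 1).

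The receptors and Acot1 had no unadjusted p below 0.05 in any population. Pparg medians were 24.2 and 34.3 CPM in adipose tissue macrophages, 30.1 and 46.9 in Kupffer cells and 38.1 and 31.8 in islet macrophages, fasted and refed. In microglia 2 of 9 refed libraries had 17.3 and 18.3 CPM of Pparg where every other library of both groups had at most 0.107. Ppard in monocytes had medians of 4.04 and 1.34 CPM (log2 -2.15 ± 1.08, edgeR, unadjusted p = 0.064), lower in each of the 4 cohorts, as were 6.43% of genes. Acot1 in Kupffer cells ran from 15.3 to 62.3 CPM fasted and from 18.9 to 47.8 refed (log2 -0.64 ± 0.40).

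**Figure D3:**
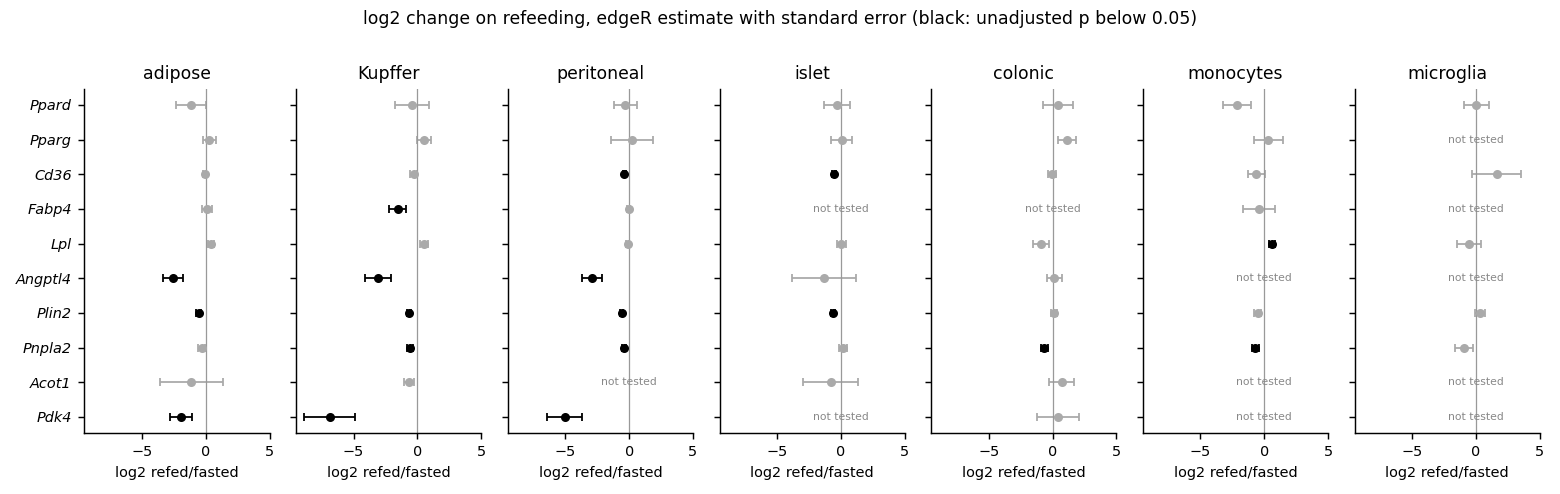
Log2 change from fasted to refed for the 10 genes in the 7 populations, as edgeR estimates with their SE, with those at an unadjusted p below 0.05 in black and untested genes marked. Angptl4, Plin2 and Pdk4 are on the lower side in adipose tissue macrophages, Kupffer cells and peritoneal macrophages, and no point passed the adjusted p of 0.05.

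A joint fit of the 110 libraries asked for the mean of the 7 refeeding effects over 18640 genes. edgeR called none of the 10 genes there, while it called 37 genes in all (0.198%). The estimate was negative for 9 of the 10 (and for 9639 of all 18640 genes), with a median of -0.42 against -0.01 for all genes. Of the 9, Cd36 (-0.05 ± 0.23), Fabp4 (-0.03 ± 3.00) and Lpl (-0.003 ± 0.20) lay far within their SE. Angptl4 had -1.60 ± 0.46 (adjusted p = 0.149), Plin2 -0.35 ± 0.10 (0.147), Pnpla2 -0.49 ± 0.15 (0.173) and Pdk4 -1.36 ± 0.77 (0.801), all by edgeR. Pparg was positive at 1.64 ± 0.41 (edgeR adjusted p = 0.0609). That value rests on microglia, in which no fasted library had a count, and it was 0.43 without them. A limma-trend fit that treated a treatment and number as the animal called Pdk4 (-1.73 ± 0.41, adjusted p = 0.0341) and Angptl4 (-1.86 ± 0.38, adjusted p = 0.00447), with 35 genes called in all (0.188%). With 1 value for each treatment and number (8 fasted, 9 refed), limma called no gene, with unadjusted p of 0.0023 for Pdk4 and 0.0067 for Angptl4. Leaving out microglia, edgeR called Angptl4 (-2.06, adjusted p = 0.0372) and Plin2 (-0.48, adjusted p = 0.0386), and leaving out islet macrophages it called Pparg (1.90, adjusted p = 0.0368). How many of all genes were called with a population left out was not counted, so these calls have no share beside them. The estimate for Pdk4 was -0.43 without Kupffer cells and -0.65 without peritoneal macrophages, neither called. These edgeR fits take the 110 libraries as independent. The limma-trend fit estimated a correlation of -0.00347 between libraries of 1 treatment and number, so it too took them as nearly independent.

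Whether the refeeding effects differed among the 7 populations was tested in the same fit. None of the 10 genes passed, while 5 genes in all did (0.0268%). The smallest unadjusted p were 0.0019 for Pparg, 0.0044 for Pdk4 and 0.031 for Plin2 (edgeR), and limma-trend passed none of the 10 either (0.327% of genes), so a difference between colonic macrophages and the others was not shown.

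Other genes of the same pathways were read from 7 lists that hold 82 genes. Of those tested, edgeR called 0 of 68 in adipose tissue macrophages and 0 of 67 in Kupffer cells after refeeding, where 6 and 2 were at an unadjusted p below 0.05, against 5.16% and 3.27% of all genes. Peritoneal macrophages had 1 of 67, Pdk3, another pyruvate dehydrogenase kinase, which fell from 46.5 ± 12.2 to 20.8 ± 5.35 CPM (log2 -1.18 ± 0.22, edgeR adjusted p = 0.0235). This call was lost with the replicate number in place of the cohort and without cohort 4, where edgeR called 0 genes in all. Of the 67, 12 were at an unadjusted p below 0.05, against 11% of all genes. In the joint fit 1 gene of the lists fell, Ucp2, a mitochondrial carrier (log2 -0.32 ± 0.08, edgeR adjusted p = 0.0403). The list medians in that fit ran from -0.12 for oxidation targets, where 14 of 20 were lower (9639 of all 18640 genes were), to 0.17 for the other acyl-CoA thioesterases. Slc27a1, a fatty acid transporter, had -0.50 (adjusted p = 0.171), and Cpt1a, which admits fatty acids to mitochondria, -0.57 (0.268), both by edgeR. The other genes with the smallest unadjusted p in their list had adjusted p from 0.475 to 0.996 by edgeR. Those with a positive estimate were the corepressor Ncor1 (0.24), the fatty acid transporter Slc27a4 (0.85), the droplet genes Fitm2 (2.01) and Plin3 (0.28), the thioesterase Acot13 (0.35) and the phosphatase Pdp1 (0.83). Those with a negative one were the coactivator Ppargc1b (-1.32), the lipases Mgll (-1.12) and Lipa (-0.11), the thioesterase Acot2 (-0.40) and the kinase Pdk2 (-0.57). The droplet coat and triglyceride synthesis list had 11 of 16 genes on the higher side (median 0.14), where 9001 of all genes were.

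In the diet experiment 1 of the 10 genes passed the test. Fabp4 fell in peritoneal macrophages of mice on high-fat diet with STZ. It had 671, 633, 494, 333 and 319 CPM in the 5 ND libraries, 403, 365, 362 and 347 in the 4 HFD libraries and 206, 178, 173, 80.1 and 37.1 in the 5 libraries of HFD with STZ. The STZ libraries were all below every library of the other 2 groups. Against ND the log2 difference was -1.97 ± 0.40 (edgeR adjusted p = 0.0331; DESeq2 2.48e-06; voom 0.0339), in 1 of 9 tested genes. edgeR called 1.29% of all genes there (0.628% lower), DESeq2 7.18% and voom 6.29%, and 1.97% were lower without overlap. Fabp4 was lower with STZ in each of the 5 cohorts, as were 8.17% of genes. The call was lost in 9 of 14 fits that left out 1 library, with adjusted p from 0.0176 to 0.119 and log2 from -2.26 to -1.63, and without the filter on low counts (adjusted p = 0.0981). Against HFD the difference was -1.53 ± 0.40 (edgeR adjusted p = 0.216; DESeq2 adjusted p = 0.00647). HFD without STZ differed from ND by -0.44 ± 0.41, within the spread.

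Marker sums were read beside this result. The 6 peritoneal macrophage markers summed to 19231 to 25078 CPM in ND, 22438 to 23249 in HFD and 10826 to 23978 in HFD with STZ. The 9 endothelial markers were near 0 throughout, at 1.31 to 2.57 CPM in ND, 0.723 to 2.07 in HFD and 0.061 to 1.32 with STZ, with 5 of the 9 at 0 in all STZ libraries. Adipocyte sums were at most 3.52 CPM. The part of the lower peritoneal marker sums in the difference of Fabp4 was not tested.

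Other peritoneal genes differed between STZ and HFD without passing edgeR's adjustment, which called 0 of 13225 genes in that comparison. DESeq2 called 2 of the 9 (1.55% of all genes) and voom 3 (2.57%). Without overlap 4 of 9 tested genes were higher (2.85% of all genes) and 1, Fabp4, was lower (2.87%). Angptl4 had 5.21, 8.10, 9.14, 9.92 and 18.6 CPM with STZ and 1.28, 2.23, 2.87 and 3.04 on HFD alone, a log2 difference of 1.90 ± 0.52 (edgeR, unadjusted p = 0.0031; DESeq2 adjusted p = 0.0139; voom 0.0152). Its 5 ND libraries, at 2.5, 3.75, 3.88, 10.2 and 16.3, spanned both groups.

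Pdk4 had 3.10, 5.10, 6.39, 10.9 and 13.6 CPM with STZ and 0.472, 1.03, 2.19 and 2.83 on HFD (log2 2.5 ± 0.84, edgeR, unadjusted p = 0.011; voom adjusted p = 0.0492). Its ND libraries lay between 0 and 28.3. Cd36 had 1113, 1115, 1265, 1281 and 1422 CPM with STZ and 825, 915, 922 and 1112 on HFD (log2 0.47 ± 0.18, edgeR, unadjusted p = 0.021; voom adjusted p = 0.0247). Plin2 was at 684 to 1036 CPM with STZ and 457 to 636 on HFD (log2 0.43 ± 0.25, unadjusted p = 0.11 by edgeR). Against ND, a comparison that shares the STZ libraries, the differences of these 4 genes ran from 0.11 ± 0.23 for Plin2 to 0.84 ± 0.78 for Pdk4 and none passed. Pparg, at 1.15 to 9.36 CPM with STZ, 0.671 to 1.67 on ND and 0.141 to 2.43 on HFD, had log2 differences of 1.37 ± 0.57 and 1.62 ± 0.61 (edgeR, unadjusted p = 0.031 and 0.019). Lpl with STZ was 0.48 ± 0.19 below ND on the log2 scale (log2 -0.48, unadjusted p = 0.026 by edgeR).

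High-fat diet alone was then compared with ND in peritoneal macrophages. edgeR called 0 of the 9 tested genes and 0 of 13225 in all, and Angptl4 alone was at an unadjusted p below 0.05 (log2 -1.26 ± 0.55, unadjusted p = 0.038; 1.86% of genes were that low). DESeq2 (0.181% of genes) and voom (0.0454%) called none of the 9. Of the pathway lists, 3 of 71 tested genes passed in HFD with STZ against ND, where edgeR called 171 of 13225 genes in all. With 1 library left out it called 30 to 301 genes, and whether these 3 calls held was not tested. Nr1h3, the gene of LXR-alpha, rose from 4.35 ± 1.15 to 11.9 ± 2.37 CPM (log2 1.44 ± 0.25, adjusted p = 0.0194). Nrip1, a nuclear receptor corepressor, fell from 57.8 ± 12.0 to 26.4 ± 3.97 CPM (log2 -1.12 ± 0.21, adjusted p = 0.0272), and Fabp5, a fatty acid carrier related to Fabp4, fell from 174 ± 52.8 to 85.3 ± 23.6 (log2 -1.03 ± 0.20, adjusted p = 0.0301), all by edgeR.

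In islet macrophages Plin2 had the smallest unadjusted p (edgeR) of the tested genes among the 10 in each diet comparison, though not the largest log2 estimate. It had 393, 567, 668 and 993 CPM in the 4 ND libraries, 603, 759, 1074 and 1459 in the 4 HFD libraries and 1166, 1294 and 1344 in the 3 libraries of HFD with STZ. It was higher on HFD than on ND in each of the 4 cohorts and higher with STZ than on either diet in each of the 3 cohorts that hold both, as were 7.04% (HFD against ND), 10.3% (STZ against ND) and 8.18% (STZ against HFD) of genes. The STZ libraries did not overlap the ND libraries, as for 3.26% of genes on the higher side. The log2 difference of HFD with STZ from ND was 1.24 ± 0.15 (edgeR adjusted p = 0.0578), where the median over all genes was -0.15 and edgeR called none of 12406. DESeq2 (adjusted p = 4.11e-12, with 4.79% of genes called) and voom (0.00952, with 0.0403%) called it. So did edgeR with another scaling (adjusted p = 0.0376, with 3 of 12406 genes called) or without the filter (0.00986, with 4 of 22065). HFD differed from ND by 0.55 ± 0.13 (edgeR, unadjusted p = 0.0022; DESeq2 adjusted p = 0.0174, with 1.8% of genes called) and HFD with STZ from HFD by 0.69 ± 0.15 (edgeR, unadjusted p = 0.00092; DESeq2 adjusted p = 0.000351, with 3.01% of genes called).

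Cd36 in islet macrophages had 666, 1023, 1148 and 1873 CPM on ND and 520, 659, 709 and 734 on HFD, overlapping through the lowest ND library. HFD minus ND was -0.79 ± 0.23 on the log2 scale (edgeR, unadjusted p = 0.0063; DESeq2 adjusted p = 0.0306), with a lower HFD library in each of the 4 cohorts (3.97% of genes). With STZ it had 458, 782 and 869. Lpl had 64, 81.4, 113.4 and 125 CPM on HFD and 135, 199 and 244 with STZ, without overlap (2.33% of genes on that side), a log2 difference of 0.95 ± 0.39 (edgeR, unadjusted p = 0.035). Pdk4 had no count in any of the 11 islet libraries. Endocrine markers were counted in every diet group, with sums of 1876 to 6095 CPM on ND, 3441 to 6195 on HFD and 1775 to 3563 with STZ. B and plasma cell markers reached 7582 CPM on ND, 14194 on HFD and 143 with STZ, and their part in these values was not tested.

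In microglia Pparg, Fabp4 and Pdk4 had no count in any of the 12 libraries of the diet experiment, and 5 of the 10 genes could be tested. Pnpla2 averaged 45.1, 70.6 and 58.9 CPM on ND, HFD and HFD with STZ, and Ppard 10.1, 11 and 13.3. edgeR called none in the 3 comparisons, nor any other gene (0%). Plin2 alone was at an unadjusted p below 0.05, in HFD with STZ against ND (log2 0.63 ± 0.27, unadjusted p = 0.042; 0.673% of genes were that high). Its libraries had 25.5, 43.2, 45.4 and 47.5 CPM on ND, 44.7, 53.3, 54.8 and 59.9 on HFD and 19.1, 40.7, 70.7 and 72.9 with STZ, where the lowest comes from a cohort with no other group. DESeq2 (0.122%, 0.165% and 0.365% of genes in the 3 comparisons) and voom called none of the 5. The effect of HFD with STZ against ND on Plin2 differed among the 3 populations at an unadjusted p of 0.0074 (edgeR adjusted p = 0.209), and none of the 10 passed in any of the 3 tests of such differences, where 0.308%, 0.754% and 0.708% of genes did.

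**Figure D4:**
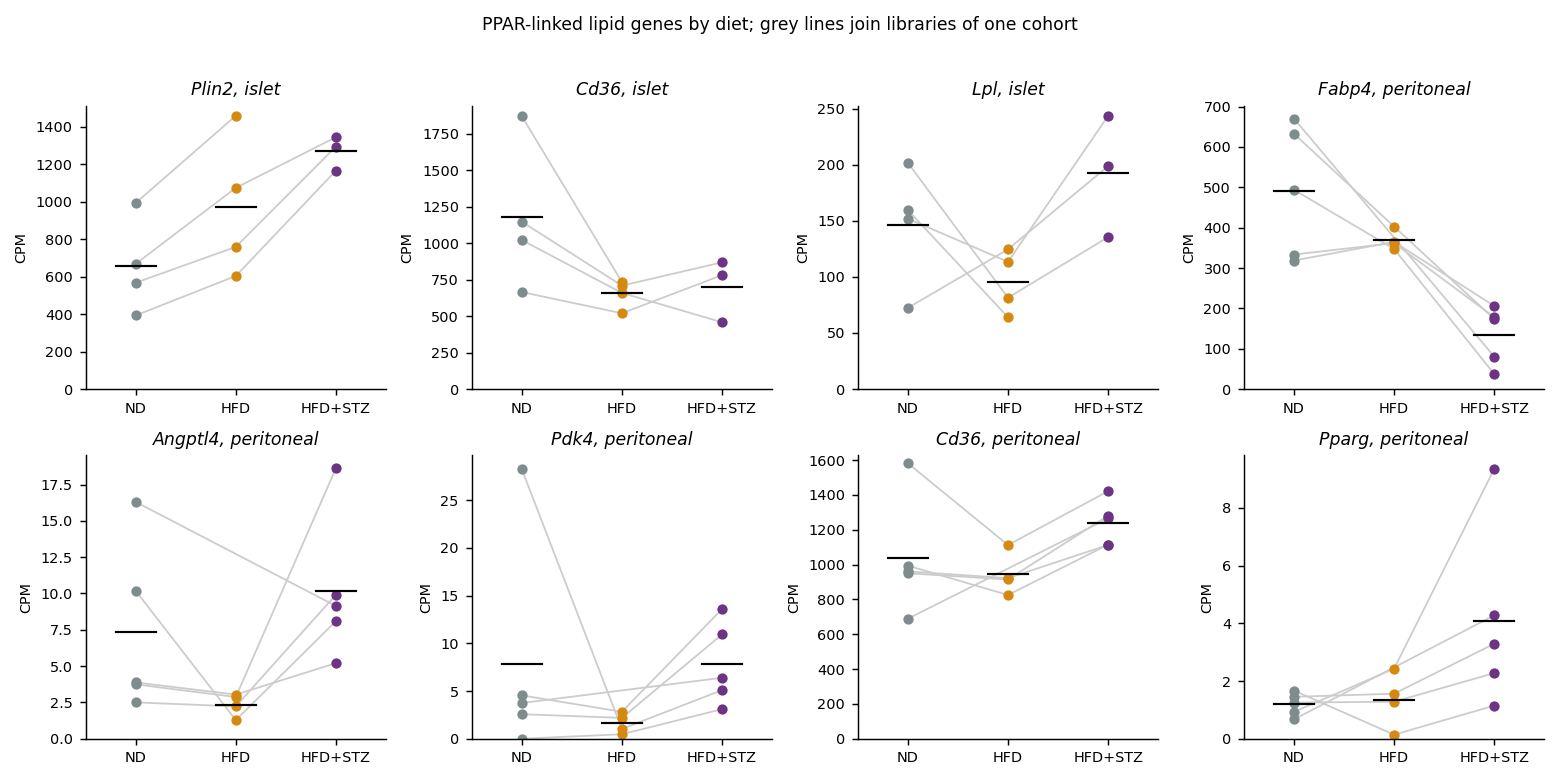
CPM per library by diet for 3 genes in islet macrophages and 5 in peritoneal macrophages, with grey lines joining libraries of 1 cohort and black bars at the group means. Islet Plin2 is higher on HFD than on ND in each of 4 cohorts and highest with STZ in the 3 cohorts that hold it, and peritoneal Fabp4 with STZ (37.1 to 206 CPM) lies below every other library.

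How the genes moved together was described over the 110 refeeding libraries after removing each population's mean, as Pearson's r of log2 CPM, with no p because libraries share cohorts, depth and perhaps animals. The difference between fasted and refed libraries was not removed, so it is part of r. Monocytes and microglia, in which Angptl4 and Pdk4 were near 0, were included. Among the 10 genes the highest values were 0.48 for Cd36 with Fabp4, 0.48 for Angptl4 with Pdk4 and 0.45 for Angptl4 with Plin2, and the lowest was -0.21 for Lpl with Pparg. Over 10444 genes with a mean of at least 5 CPM, the closest to Angptl4 were Abtb1 (0.51), N4bp2l1 (0.49) and Gas5 (0.49). Plin2 lay closest to Cd300a (0.58), Sqstm1 (0.55) and Rbm7 (0.54), and Pdk4 to Angptl4, Susd3 (0.47) and Rgs2 (0.45). For Cd36 they were Cd300ld (0.68), Ifitm2 (0.62) and Retnla (0.56), and for Fabp4 Cd36, Clec14a (0.42) and Retnla (0.42). Lpl was nearest to Trem2 (0.56), Gm16286 (0.51) and Nol7 (0.45), Pparg to Ccnd2 (0.51), Cd74 (0.43) and Metrnl (0.43), and Pnpla2 to Il2rg (0.52), Sertad1 (0.49) and Eef1b2 (0.48). The receptor Ppard had no gene above 0.35 (Azi2, then Mpp6 and Stt3a at 0.33), and Acot1 was nearest to Degs2 (0.44), Cd101 (0.44) and Cald1 (0.39).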

How the data were processed

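RNA of sorted macrophages and monocytes was measured as counts per gene in 147 libraries. Per the submitters' processing notes, reads were trimmed with Trimmomatic 0.36, aligned with STAR 2.5.1a and counted with featureCounts on mm10, and the authors deposited raw counts in 1 table per experiment. Annotation release, strand setting and treatment of reads that fit several genes were not given in the sources used here. Symbols and coordinates came from GENCODE M21, matching 50376 of 50686 identifiers without their version; unmatched ones hold 0.0438% of counts. No 2 libraries of a group were identical in 443 pairs. The genes and lists were chosen with earlier results of these data known.

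Each population was fitted with edgeR 4.0.16 in R 4.3.3 (quasi-likelihood test, TMM scaling, filterByExpr, cohort as a term), with Benjamini-Hochberg adjustment over all genes tested and a threshold of 0.05. For islet and peritoneal macrophages by diet the replicate number names the cohort and so is a block. Alternatives were DESeq2 1.42.0, limma 3.58.1 (voom with quality weights), other scaling, no filter, no cohort and libraries left out. Of those added after seeing the data, 1 replaced a planned joint voom fit by limma-trend, because the variance trend that voom fitted fell below 0 (lowest -0.508). The others left out cohorts, left out peritoneal refed replicate 6 or used another filter. Scripts were tested on simulated data. Depth was at least 7.92 M counts. The ± after a log2 change is its SE, and the ± after a mean CPM is the SD over libraries. In the refeeding experiment the correlation of deviations between same-numbered libraries had population means from -0.003 to 0.068, so numbers were not taken as pairs. In the diet experiment cohort numbers come from the labels, and 9 of 13 peritoneal and 2 of 10 islet pairs exceeded 0.1. Named besides the 10 genes were pathway genes that passed in a comparison, the 2 of each list with the smallest p in the joint fit, and the 3 genes closest to each of the 10.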

Additional observations from a re-analysis of the deposited data

Results flagged for a closer look

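Of the groups of 4 to 10 libraries, 182 combinations of a gene and a group were checked for a single library far from the others (the gap to its neighbour over the whole range, on log2(CPM + 1)), and 19 had one, where the nominal rate is 5%. The same library can be flagged for more than 1 gene, and an excess over that rate was not tested.

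In the refeeding experiment peritoneal refed replicate 6 had 55.6 CPM of Pdk4 where the others had 0 to 4.95, and fasted replicate 1 had 16.01 against 34.4 to 51.9. Colonic refed replicate 7 had 256.4 CPM of Plin2 (others 752 to 2101), refed replicate 6 had 0.2896 of Ppard (4.07 to 18.6) and 201.2 of Pnpla2 (46.9 to 93.8), and fasted replicate 7 had 57.58 of Pnpla2 (127 to 197). Islet refed replicate 5_6 was low in both receptors, with 5.994 CPM of Pparg (others 25.8 to 45.6) and 0.2756 of Ppard (9.55 to 21.2). Kupffer refed replicate 1 had 439.3 CPM of Lpl (1217 to 2084) and fasted replicate 2 had 338.6 (942 to 1526). Monocyte refed replicate 4 had 0 CPM of Pparg (5.70 to 23.8).

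In the diet experiment islet ND replicate 5 had 7.806 CPM of Angptl4, the others at most 0.0816. Peritoneal HFD replicate 1 had 69.4 CPM of Pnpla2 (54.1 to 55.6). Microglia ND replicate 3_17 had 25.54 CPM of Plin2 (43.2 to 47.5). Microglia HFD replicate 1_3 had 8.257 CPM of Cd36 (0 to 0.0296) and 5.749 of Lpl (30.5 to 35.4), and HFD replicate 3_16 had 16.36 of Ppard (9.02 to 9.49). With STZ, microglia replicate 3_13 had 8.872 CPM of Cd36 (0 to 0.119) and replicate 3_15 had 41.24 of Pnpla2 (63 to 68).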

How the results depend on the processing

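Of 1864 values recomputed for 134 changes, 1743 kept their direction, 121 changed sign without a call on either side, and no call reversed. Without the filter on low counts the refeeding calls became 3 in adipose tissue macrophages, 2 in Kupffer cells and 3 in peritoneal macrophages, and with DESeq2 1, 2 and 4, where edgeR had 0. DESeq2 also called 1 in islet macrophages (44 of 10059 genes in all). In peritoneal macrophages voom called 3, and edgeR called 2 without cohort 3 and 2 without refed replicate 6, alternatives chosen after seeing the data. The edgeR counts of these alternatives are given without the share of all genes called. In islet macrophages DESeq2 called 2 for HFD against ND (223 of 12406 genes in all) and 1 for HFD with STZ against HFD (374). For HFD with STZ against ND DESeq2 called 1 (594 of 12406), as did voom (5), RLE scaling (3) and no filter (4 of 22065). In peritoneal macrophages the call of HFD with STZ against ND became 0 without the filter (710 of 26507 genes in all). It ran from 0 to 1 with 1 library left out (30 to 301 genes in all). Against HFD DESeq2 called 2 (205 of 13225) and voom 3 (340). In the joint fit limma-trend called 2, leaving out microglia 2 and leaving out islet macrophages 1. All genes called with a population left out were not counted. With the replicate block in place of the cohort, 0 of the 10 genes were called in each refeeding comparison. With no replicate block the diet comparisons in islet and peritoneal macrophages kept 0. The exception was 1 for HFD with STZ against ND in peritoneal macrophages (214 of 13225 genes in all). The cause of these changes was not tested. The filter on low counts left 0 of the 10 genes untested in adipose tissue macrophages and Kupffer cells and 5 in microglia.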
